A study of Mus musculus with 12 samples.

Results

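The unstimulated transcriptome of cultured Eµ-myc lymphoma cells, a mouse B cell line, was described from 3 of the 12 RNA sequencing libraries of the study, the samples titled Unstimulated 1, 2 and 3 in the count matrix. These cells, of strain C57BL/6, received no interferon-γ (IFN-γ, a cytokine that signals through JAK and STAT proteins); the labels do not say whether they received the neutralising antibody or when they were harvested. The other 9 libraries came from the same line after 1 h, 6 h or 24 h of recombinant mouse IFN-γ, with 3 libraries at each time, and were not compared here. All 12 came from cells grown in RPMI 1640 with fetal calf serum. The labels do not say whether the 3 libraries came from separate cultures, so the SDs below measure the spread between these samples, which may be technical.

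In Eµ-myc cells the Myc oncogene is placed under the enhancer of the immunoglobulin heavy chain locus, which is active in B lineage cells, and mice carrying the transgene develop B cell tumours. Developing B cells first join V, D and J segments of the heavy chain with the RAG proteins, pair the product with a surrogate light chain (Igll1 and Vpreb1), and then rearrange a light chain, kappa or lambda. Immature B cells carry surface IgM, and later stages add IgD and lose the recombination machinery. MYC binds DNA as a dimer with MAX and is known for driving ribosome synthesis, metabolism and the cell cycle. IFN-γ is known to act on cells through a receptor of the IFNGR1 and IFNGR2 chains and the kinases JAK1 and JAK2, with interferon-inducible GTPases among its targets. The labels do not give the tumour from which the line was made or whether it is a single clone. Gene counts also do not separate transcripts of the transgene from those of the endogenous Myc gene.

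Levels are in TPM, the deposited counts divided by exon length and scaled to a total of 1000000 in each library, as mean ± SD over the 3 libraries (n = 3). A gene was called expressed at a TPM of at least 1 in every library and high at a mean of at least 100. A gene with at most 6 counts in the 3 libraries together, equal to 3 read pairs, was held to be at or under the floor, and the remainder were called low. By these rules 11592 of 53274 annotated genes (21.8%) and 9602 of 21865 protein-coding genes (43.9%) were expressed. In all, 1767 annotated genes were high, and 1669 of the 21865 protein-coding genes were, the background for high list members below. In turn, 37063 annotated genes (69.6%) and 10030 protein-coding genes (45.9%) were at or under the floor. The median level was 22.4 TPM over expressed genes and 0.164 TPM over all protein-coding genes. The most abundant transcripts were mitochondrial and translational, led by mt-Co1, a respiratory chain subunit, at 37712 TPM on average and Eef1a1, an elongation factor, at 19221 TPM. Library totals were 55484722, 49440358 and 59184574 counts. Levels are a description of bulk RNA, in which fewer cells of a type and less RNA per cell cannot be told apart.

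The cells carried transcripts of an IgM heavy chain and a kappa light chain, each dominated by a single V segment. Ighv14-1 held 99.661, 99.681 and 99.642% of the counts over all 113 heavy chain V segments. The exact Clopper-Pearson 95% intervals were 99.57 to 99.74, 99.59 to 99.76 and 99.55 to 99.72%. They cover counting error only, here and below, because the labels describe no molecular identifiers. They also take each count as independent, so they are too narrow even for that where both mates of a pair were counted. The 3 libraries overlapped in this share. Igkv19-93 held 93.877, 93.258 and 94.047% of the counts over 100 kappa V segments, with intervals of 93.66 to 94.09, 93.02 to 93.49 and 93.85 to 94.24%. The share was lowest in library 2, but intervals on counts of single mates do not settle a difference between libraries. The germline reference sequences of these segments, and of Ighd1-1, are shown because they identify the receptor genes that these cells transcribed. They are the whole D segment and the last 240 of the 351 and 347 coding bases of the V segments, from GENCODE M21 transcripts on GRCm38, on the minus strand, at chr12:113931953-113932382 for Ighv14-1, chr6:68736297-68736780 for Igkv19-93 and chr12:113482170-113482192 for Ighd1-1. The coordinates are those of the whole genes. Capitals mark the last in-frame cysteine codon through the 3′ end of a V segment, where rearrangement joins it to the next segment, and the whole D segment. The lymphoma's own junctions and mutations were not read here.
Ighv14-1: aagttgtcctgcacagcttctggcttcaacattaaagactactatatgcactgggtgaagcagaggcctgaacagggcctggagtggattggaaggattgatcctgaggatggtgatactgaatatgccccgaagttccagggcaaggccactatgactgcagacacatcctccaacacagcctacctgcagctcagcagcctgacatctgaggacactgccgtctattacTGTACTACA
Igkv19-93: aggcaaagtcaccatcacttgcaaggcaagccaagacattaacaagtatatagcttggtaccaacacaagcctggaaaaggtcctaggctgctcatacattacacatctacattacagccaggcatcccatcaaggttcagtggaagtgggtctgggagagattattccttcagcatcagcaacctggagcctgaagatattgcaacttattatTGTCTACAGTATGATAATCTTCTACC
Ighd1-1: TTTATTACTACGGTAGTAGCTAC

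Beyond Ighv14-1, only Ighv14-2, Ighv14-3 and Ighv14-4 were above the floor among heavy chain V segments, with mean shares of 0.227, 0.0757 and 0.0241%, and 105 segments were at 0 counts. Over 351 bases, these relatives are 97.15, 96.3 and 97.44% identical to Ighv14-1, so their few counts are uncertain for the single segment. Of 19 D segments, Ighd1-1 alone was above the floor, with 119, 117 and 124 counts, and the other 18 were at 0. Among the heavy chain J segments, Ighj3 had 408, 356 and 483 counts and Ighj4 had 152, 194 and 161 counts, while Ighj1 and Ighj2 were not above the floor. The kappa V segments were less exclusive than the heavy chain V segments: 68 of the 100 were above the floor, and 15 were at 0. After Igkv19-93, the largest mean shares were 2.33% for Igkv1-88, 1.15% for Igkv9-124 and 0.417% for Igkv12-89. All 5 annotated kappa J segments named Igkj1 to Igkj5 had counts, between 1031 for Igkj1 and 3052 for Igkj5 over the 3 libraries. None of 144 T cell receptor V segments was above the floor, whereas 1 of 8 T cell receptor constant genes was, and the other 7 were at 0.

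**Figure D1:**
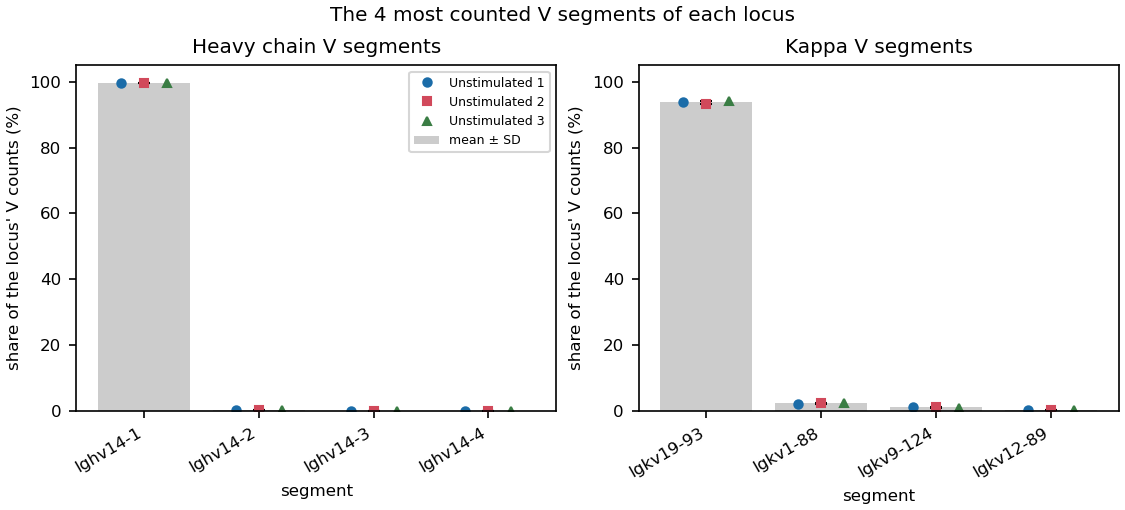
Counts over immunoglobulin V segments in the 3 unstimulated libraries, as the share of each locus held by its 4 leading segments (percent, bars are means with SD and points are libraries). Ighv14-1 lies between 99.642 and 99.681% of heavy chain V counts and Igkv19-93 between 93.258 and 94.047% of kappa V counts.

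Of 12 immunoglobulin constant regions 5 (41.7%) were expressed, with a median of 0.300 TPM. That share was near the 43.9% of protein-coding genes and above the 21.8% of all annotated genes. Igkc, which encodes the kappa constant region, was at 12953, 13567 and 14273 TPM (13598 ± 661), the fifth highest level of all genes. Ighm, the IgM heavy chain constant region, was at 5476, 5370 and 5308 TPM (5385 ± 84.9). Library 3 was highest for Igkc and lowest for Ighm. Ighd, the IgD constant region, was at 28.8, 33.9 and 29.4 TPM (30.7 ± 2.77), so that Ighm exceeded Ighd 190, 159 and 180 times within each library. The kappa constant region held 99.797, 99.794 and 99.789% of light chain constant region counts. The lambda genes Iglc2 and Iglc3 were at 17.8 ± 2.03 and 8.51 ± 0.725 TPM. Ighg3 had 6 counts in all, and Ighg1, Ighg2b, Ighg2c, Ighe and Igha, the constant regions of switched isotypes, were listed at 0 counts.

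The 5 markers of the line were all expressed, with coordinates given here and below on GRCm38. Cd79a, a signalling chain of the B cell receptor on chr7:24897381-24902197 (plus strand), was at 918, 891 and 906 TPM (905 ± 13.8), rank 123 of all annotated genes. Pax5, the factor that commits cells to the B lineage, on chr4:44524757-44710487 (minus strand), was at 232, 251 and 233 TPM (239 ± 10.5). Ebf1, an early B cell factor on chr11:44617317-45008091 (plus strand), was at 71.2, 78.9 and 70.9 TPM (73.7 ± 4.55). Both factors were highest in library 2. Igll1, a surrogate light chain gene on chr16:16860671-16863985 (minus strand), was at 46.1, 44.03 and 38.5 TPM (42.9 ± 3.92).

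Precursor genes were split between expressed members and members near the floor. In all, 12 of 18 (66.7%) were expressed, against 43.9% of protein-coding genes. In the list 4 were high, with a median of 17.3 TPM. Rag1, an endonuclease subunit of V(D)J recombination, was at 121, 128 and 114 TPM, and Rag2, its partner, was at 50.5, 60.1 and 50.1 TPM. Il7r, the interleukin 7 receptor chain of B progenitors, was at 234, 265 and 222 TPM. Library 2 was the highest for all 3 of these genes. The surrogate light chain gene Vpreb1 was at 33.8, 28.5 and 36.8 TPM, and Vpreb2 was low at 0.782 ± 0.124 TPM. Vpreb3, which assists immunoglobulin assembly, averaged 348 ± 17.6 TPM, and Cd24a, a surface antigen of immature B cells, 2967 ± 146 TPM. The surface antigens Spn (CD43) and Cd93 averaged 61.8 ± 1.53 and 30.2 ± 2.08 TPM. The other members that were not expressed were at the bottom of the list, and they were not only genes of early progenitors. Dntt, which encodes terminal transferase, had 13 counts over the 3 libraries (0.116 TPM), and Flt3, a progenitor cytokine receptor, averaged 0.287 TPM. Enpep, which encodes the pre-B antigen BP-1, had 2 counts. Kit, the stem cell factor receptor, and Arpp21 were at 0 counts. A count of 0 allows up to the floor.

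Of 25 genes of B cell maturation, 23 (92.0%) were expressed, against 43.9% of protein-coding genes. In the list 9 were high, with a median of 54.9 TPM. Cd79b, the partner of Cd79a, averaged 852 ± 37.99 TPM, and the ratio of Cd79a to Cd79b was 1.03, 1.08 and 1.09. Cd72 and Cd22, inhibitory receptors of B cells, averaged 250.2 ± 7.15 and 188 ± 6.44 TPM. Ms4a1, which encodes CD20, was low among them at 4.15, 5.11 and 5.09 TPM. Cd40 and Cxcr5, receptors for T cell help and for follicular homing, averaged 1.98 ± 0.208 and 1.82 ± 0.507 TPM. Cr2 (CD21) and Fcer2a (CD23), surface receptors of mature B cells, were at 0 counts in all 3 libraries, where the floor corresponds to 0.0155 and 0.0407 TPM. All 21 genes of B cell receptor signalling were expressed, against 43.9% of protein-coding genes. Their median was 89.0 TPM, and Prkcb, a protein kinase C, was lowest at 4.70 ± 0.287 TPM. Plcg2 and Btk, which pass on the receptor's signal, averaged 282 ± 13.2 and 248 ± 4.03 TPM.

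**Figure D2:**
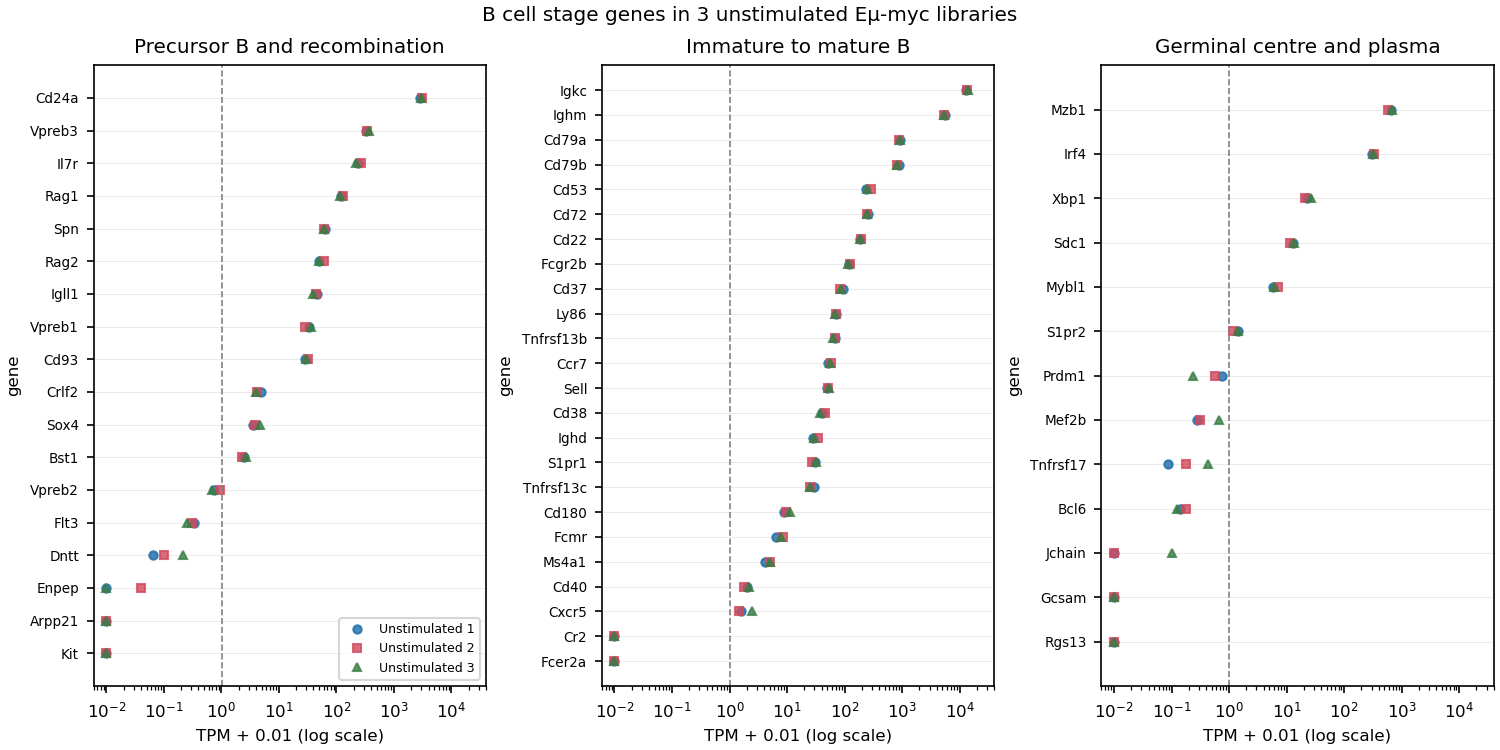
Levels of B lineage genes in each of the 3 unstimulated libraries (TPM plus 0.01, log scale, points are libraries, dashed line at 1 TPM). Cd24a, Cd79a and Cd79b lie far to the right of the line in every library, while Kit, Arpp21, Cr2 and Fcer2a have no counts.

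Of 14 genes of germinal centre and plasma cells 6 were expressed, with a median of 0.456 TPM. That share, 42.9%, was near the 43.9% of all protein-coding genes, so the count does not set the list apart. Mzb1, a chaperone of the endoplasmic reticulum in antibody-making cells, was at 644, 586 and 668 TPM, and Irf4, a factor of activated B cells, at 306, 337 and 318 TPM. Xbp1, a factor of secretory cells, and Sdc1 (CD138) averaged 23.4 ± 3.11 and 12.6 ± 0.915 TPM. Prdm1, which drives plasma cell differentiation, was below 1 TPM in every library at 0.733, 0.552 and 0.229 TPM. Bcl6, the germinal centre repressor, had 43 counts over the 3 libraries. Gcsam and Rgs13, germinal centre genes, were at 0, and Jchain, which links antibody subunits, had 4 counts.

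Of 27 transcription factors of the B lineage, 25 (92.6%) were expressed, against 43.9% of protein-coding genes. In the list 8 were high, with a median of 47.2 TPM. Pou2af1, a coactivator of octamer factors, was highest at 1220, 1348 and 1254 TPM. Tcf3 (E2A), Ikzf1 (Ikaros) and Irf4 followed at 360 ± 8.15, 342 ± 15.03 and 320.5 ± 15.8 TPM. Spib and Spi1 (PU.1), related ETS factors, averaged 201 ± 7.95 and 70.8 ± 2.13 TPM. Myb, a progenitor factor, was at 160, 176 and 166 TPM, and Foxo1, which drives Rag expression, at 73.5, 80.3 and 75.3 TPM. The exceptions were Bcl11a, with 32 counts (0.0524 TPM), and Lef1, a precursor B cell factor, with 2 counts. Within each library Pax5 exceeded Ebf1, by 3.24 ± 0.0584 times on average.

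Myc, on chr15:61985391-61990374 (plus strand), was at 2033, 2116 and 2004 TPM (2051 ± 58.4), rank 43 of 53274 annotated genes and 37 of protein-coding genes. All 10 housekeeping genes used as a scale were expressed, with a median of 974.5 TPM. The level of Myc was close to that of Actb, which encodes actin, with ratios of 0.989, 1.12 and 1.01, and 1.80 ± 0.0902 times that of Gapdh. Max, the partner of MYC on DNA, was at 150, 162 and 141 TPM, so that Myc exceeded Max 13.6, 13.1 and 14.2 times. The paralog Mycn was at 0 counts and Mycl had 4, and Mlxipl, a glucose-responsive factor of the wider network, was at 0. The MAX partners that oppose MYC were expressed, with Mxi1 at 47.3 ± 3.01, Mxd4 at 38.1 ± 0.644, Mnt at 31.0 ± 0.580, Mxd1 at 10.3 ± 0.855 and Mxd3 at 3.23 ± 0.675 TPM. In all, 11 of 14 members of the network (78.6%) were expressed, against 43.9% of protein-coding genes, with a median of 34.5 TPM.

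**Figure D3:**
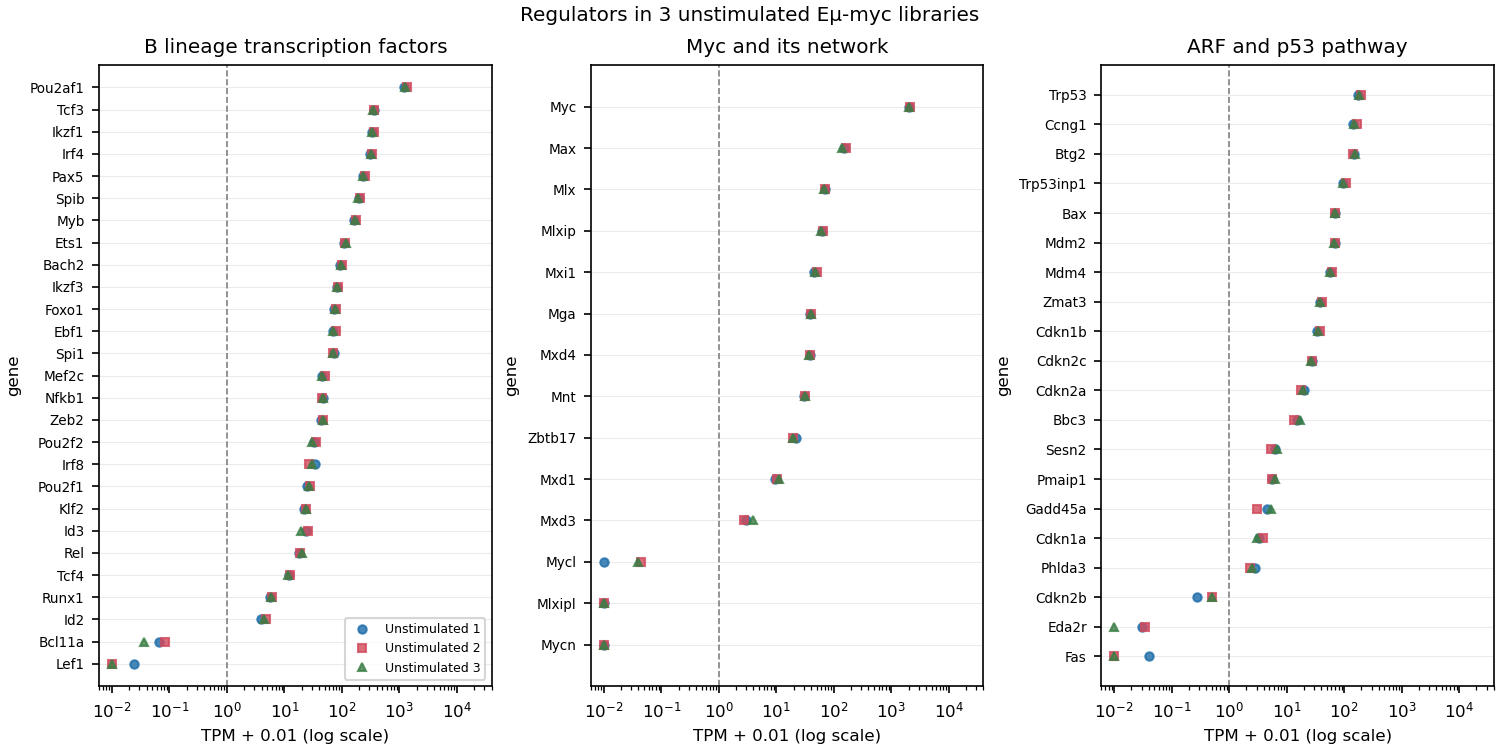
B lineage transcription factors, Myc and its network, and the ARF and p53 pathway in each unstimulated library (TPM plus 0.01, log scale, dashed line at 1 TPM). Symbols of the 3 libraries lie close together for most expressed genes, and Lef1, Bcl11a, Mycn, Mlxipl, Mycl, Cdkn2b, Eda2r and Fas lie left of the line.

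All 25 genes of a list of MYC targets and ribosome biogenesis genes were expressed, against 43.9% of protein-coding genes. All 10 housekeeping genes were expressed as well, so this count alone does not set MYC targets apart. The 25 had a median of 504 TPM, and 23 were high, against 1669 of 21865 protein-coding genes. Npm1, a nucleolar chaperone, was at 5286, 5144 and 5358 TPM. Eif5a, a translation factor, Hspd1, a mitochondrial chaperone, and Ldha, which makes lactate, averaged 2445 ± 43.6, 2364 ± 116 and 2245 ± 82.8 TPM. Ncl, nucleolin, averaged 1659 ± 41.7 TPM. Nme1 and Nme2, neighbouring nucleoside diphosphate kinase genes of similar sequence, were the 2 that were not high, at 36.4 ± 2.64 and 6.40 ± 1.51 TPM, and their single values are uncertain. A promoter of 300 bases (250 before the start and 50 after it) from RefSeq on GRCm38.p6 was found for 21 of these 25 genes. The E-box CACGTG, the letters that MYC and MAX are known to bind, was at any annotated start in 8 of the 21 (38.1%), against 8.09% of the 27025 genes with a promoter in the table. The word reads the same on both strands. The promoters of Eif5a (chr11:69921387-69921636, minus strand) and Hspd1 (chr1:55088244-55088493, minus strand) are shown as the most abundant list members with such a match, over the 250 bases before the start, with the E-box in capitals. A match is only a description of the letters.
Eif5a: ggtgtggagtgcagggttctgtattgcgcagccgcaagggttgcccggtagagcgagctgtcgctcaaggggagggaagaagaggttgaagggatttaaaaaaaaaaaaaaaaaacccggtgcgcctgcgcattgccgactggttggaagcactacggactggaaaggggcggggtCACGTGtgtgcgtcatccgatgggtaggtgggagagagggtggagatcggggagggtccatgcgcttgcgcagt
Hspd1: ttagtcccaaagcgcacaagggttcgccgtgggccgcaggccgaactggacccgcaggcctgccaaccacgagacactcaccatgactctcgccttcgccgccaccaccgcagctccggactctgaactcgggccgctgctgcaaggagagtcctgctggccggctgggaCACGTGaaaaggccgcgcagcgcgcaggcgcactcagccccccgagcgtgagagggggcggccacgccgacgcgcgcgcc

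Of 27 cell cycle genes 26 (96.3%) were expressed, against 43.9% of protein-coding genes, and 18 were high, with a median of 214 TPM. Ccna2 (cyclin A2), Pcna (the replication clamp), Mki67 (Ki-67) and Top2a (topoisomerase) averaged 781 ± 28.5, 720 ± 4.47, 677 ± 37.9 and 583 ± 10.2 TPM. The D-type cyclins differed: Ccnd1 was at 69.5, 67.0 and 68.6 TPM, Ccnd3 at 24.5, 26.1 and 25.3 TPM, and Ccnd2 had 6 counts in all. Every library thus had more Ccnd1 than Ccnd3, by 2.70 ± 0.137 times. Of 20 genes of the ARF and p53 pathway, 17 (85.0%, against the same 43.9%) were expressed, with a median of 23.04 TPM. Trp53, which encodes p53, was at 176, 197 and 181 TPM. Cdkn2a, whose locus encodes p16 and ARF, was at 19.9, 17.6 and 19.5 TPM, and the ratio of Trp53 to Cdkn2a was 9.78 ± 1.25. Mdm2, the ligase that degrades p53, averaged 68.9 ± 1.55 TPM. The p53 target Cdkn1a (p21) was at 3.31, 3.80 and 3.07 TPM, while Ccng1 and Btg2, other p53 targets, averaged 152 ± 10.5 and 150.3 ± 5.23 TPM. Cdkn2b was low at 0.424 TPM, and Eda2r and Fas had 4 and 1 counts.

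Of 18 genes of the BCL2 family, which set the threshold for apoptosis, 12 (66.7%) were expressed, against 43.9% of protein-coding genes. The list median was 5.04 TPM. Mcl1, a survival member, was at 387, 407 and 395 TPM, while Bcl2, another, was at 1.52, 1.39 and 1.22 TPM. Mcl1 therefore exceeded Bcl2 255, 292 and 322 times. Bcl2l1, which encodes BCL-XL, averaged 4.33 ± 0.510 TPM. The 3 Bcl2a1 copies in the list, Bcl2a1a, Bcl2a1b and Bcl2a1d, were at 0 counts, but these genes are nearly identical and reads that match several copies may not have been counted. Of the death-promoting members, Bak1 and Bax averaged 134 ± 1.22 and 69.0 ± 0.794 TPM, and Bcl2l11 (BIM) was at 18.9, 18.8 and 18.6 TPM.

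Of 24 surface and adhesion genes, 17 (70.8%) were expressed, against 43.9% of protein-coding genes, with a median of 22.2 TPM. Cxcr4, the chemokine receptor of marrow homing, was at 299, 261 and 296 TPM. The integrin chain Itgb1 and its partner Itga4 averaged 229 ± 3.90 and 73.3 ± 5.77 TPM, and Cd44, a hyaluronan receptor, 117 ± 4.11 TPM. Itgb2 was at 36.0 ± 0.875 TPM, while Itgal, the chain that pairs with it in LFA-1, was at 0.358, 0.192 and 0.345 TPM. Ptprc, the pan-leukocyte antigen CD45, averaged 35.5 ± 0.185 TPM. Cd274 (PD-L1) was at 5.44, 5.95 and 6.17 TPM, and Pdcd1lg2 (PD-L2) and Icosl were at 0 counts. Cd80 was at 4.76 ± 0.887 TPM and Cd86 at 0.977 ± 0.173 TPM, costimulatory ligands for T cells. Cd9, a tetraspanin, was at 0 counts and Cd5, an antigen of T cells and some B cells, had 2.

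Of 22 genes of antigen presentation, 21 (95.5%) were expressed, against 43.9% of protein-coding genes. In the list 3 were high, with a median of 21.3 TPM. B2m, the light chain of class I molecules, was at 1151, 1352 and 1235 TPM, against 54.0, 50.0 and 55.0 TPM for H2-K1, a class I heavy chain. B2m thus exceeded H2-K1 21.3, 27.0 and 22.5 times. H2-D1, another class I heavy chain, averaged 102 ± 8.33 TPM, and the H2 genes resemble each other, so that single values are uncertain. Cd74, the invariant chain of class II, averaged 228 ± 9.16 TPM, while the class II chains H2-Ab1 and H2-Aa averaged 30.5 ± 1.36 and 29.4 ± 1.51 TPM. Ciita, the class II coactivator, was at 2.57, 2.58 and 2.97 TPM. H2-DMb2 was the only member of the list that was not expressed, at 0.821 ± 0.128 TPM.

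Transcripts of the machinery that receives IFN-γ were detected. The list of 20 genes covers interferon receptors, signal transduction and feedback, including genes of type I interferon signalling. Of these 20, 16 (80%) were expressed, against 43.9% of protein-coding genes, with a median of 19.1 TPM. None was high, where 1669 of 21865 protein-coding genes were. Ifngr1, the ligand-binding receptor chain, was at 33.1, 36.2 and 35.2 TPM, and Ifngr2, the second chain, at 19.6, 20.3 and 22.7 TPM. Every library had more Ifngr1 than Ifngr2, by 1.67 ± 0.115 times. The kinases Jak1 and Jak2 averaged 86.0 ± 0.885 and 20.8 ± 0.580 TPM. Irf1, an early target, averaged 9.18 ± 0.182 TPM, and the phosphatase Ptpn2, which acts on JAK1, led the list at 97.7 ± 2.18 TPM. Socs1, a feedback inhibitor, was low at 0.454 ± 0.0184 TPM, and Usp18, a feedback inhibitor of type I interferon signalling, was at 0 counts.

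Of 22 interferon-inducible GTPases 5 were expressed, none was high, 7 were low and 10 were at or under the floor, with a median of 0.0514 TPM. High genes were also a minority of all protein-coding genes, 1669 of 21865. The share at or under the floor, 45.5%, was near the 45.9% of all protein-coding genes, and the share expressed was 22.7%, against 43.9%. The 5 were Gbp3 at 6.20, 5.66 and 5.64 TPM, Igtp at 5.73, 5.501 and 4.05 TPM, Irgm1 at 4.31, 4.49 and 5.21 TPM, Irgm2 at 2.32, 2.35 and 2.55 TPM, and Ifi47 at 1.83, 2.69 and 2.56 TPM. With a minimum of 5 TPM in place of 1, 1 of the 22 counted as expressed, against 9147 of 53274 annotated genes. Gbp2 was low at 0.591, 0.278 and 0.554 TPM. Iigp1 and Gbp4 had 2 counts each, and Tgtp1 was listed at 0, which near-identical Tgtp2 makes uncertain. Among 50 other interferon-stimulated genes 18 were expressed and 19 were at or under the floor, with a median of 0.271 TPM. These shares, 36% and 38%, lay somewhat below the 43.9% and 45.9% of all protein-coding genes, so the counts do not set the list apart. Lgals9, which encodes galectin 9, stood apart at 437, 459 and 464 TPM. Bst2 (tetherin) and Eif2ak2 (PKR) averaged 51.5 ± 5.73 and 38.8 ± 2.86 TPM. Ifi27l2a was at 20.9, 18.7 and 31.4 TPM, with library 3 higher than the other two. Isg15, a ubiquitin-like protein, was low at 0.732 ± 0.169 TPM, and Oas3, Oasl2, Ifi44, Slfn1 and Slfn5 were at 0 counts.

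The promoters of 3 GTPase genes at different levels (Irgm1, Gbp2 and Tgtp1) are shown from the RefSeq table on GRCm38.p6, over the 250 bases before the start. Capitals mark the interferon-stimulated response element (ISRE) on either strand, searched as GAAA, any 2 bases and GAAA. The window of Irgm1 is chr11:48871421-48871670 (minus strand) and holds 2 ISRE matches that overlap each other, that of Gbp2 is chr3:142620413-142620662 (plus strand), and that of Tgtp1 is chr11:48992247-48992496 (minus strand). None of these ISRE matches overlapped the GAS word TTCNNNGAA, the letters that STAT proteins are known to bind, which matched once in the Tgtp1 window only. Over the whole table of promoters, ISRE was in 3.99% and GAS in 9.55% of genes. Promoters were found for 11 of the 22 GTPase genes and 39 of the 50 other genes, under 80% of each list, so a share over either list is void. Of the B lineage factors described above, 22 of 27 had a promoter in the table, and GAS was in 7 of them (31.8%), ISRE in 1 and the E-box in 2. The GTPase genes shown had matches at levels from 0 counts to 4.67 TPM on average, which says nothing of the factors that bind there.
Irgm1: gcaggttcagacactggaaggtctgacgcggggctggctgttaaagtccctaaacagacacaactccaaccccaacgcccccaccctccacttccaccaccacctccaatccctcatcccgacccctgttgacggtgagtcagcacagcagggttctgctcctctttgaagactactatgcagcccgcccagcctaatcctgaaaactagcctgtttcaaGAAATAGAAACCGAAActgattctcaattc
Gbp2: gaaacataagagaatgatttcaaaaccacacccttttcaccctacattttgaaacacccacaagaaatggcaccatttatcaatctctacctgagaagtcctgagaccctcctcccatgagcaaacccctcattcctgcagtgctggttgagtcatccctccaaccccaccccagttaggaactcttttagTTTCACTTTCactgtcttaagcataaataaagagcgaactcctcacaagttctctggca
Tgtp1: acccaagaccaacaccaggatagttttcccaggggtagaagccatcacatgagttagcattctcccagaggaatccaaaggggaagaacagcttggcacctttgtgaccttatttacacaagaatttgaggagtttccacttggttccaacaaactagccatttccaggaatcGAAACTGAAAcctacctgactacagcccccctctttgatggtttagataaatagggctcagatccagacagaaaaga

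**Figure D4:**
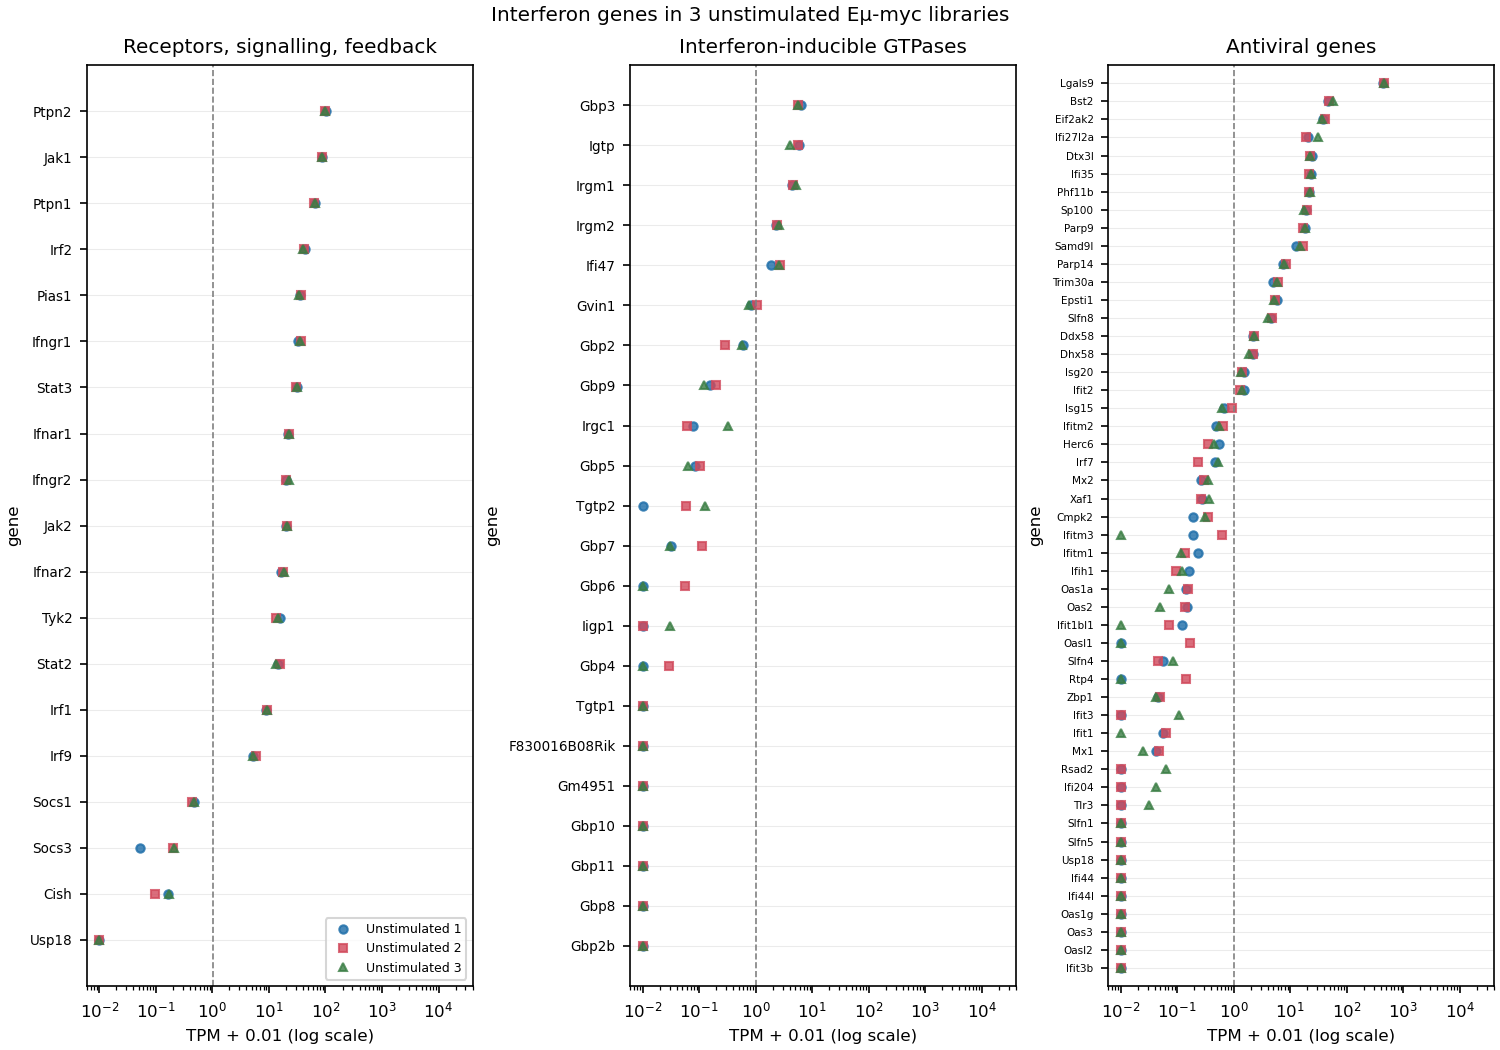
Interferon machinery, GTPases and other interferon-stimulated genes in each unstimulated library (TPM plus 0.01, log scale, points are libraries, dashed line at 1 TPM). Ptpn2 and Jak1 lie far to the right, the 5 expressed GTPases lie just right of the line, and Lgals9 stands apart from the other stimulated genes.

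Of 30 cytokine genes 3 were expressed and 23 (76.7%) were at or under the floor, against 45.9% of protein-coding genes, 19 of them at 0 counts, so that the median was 0 TPM. The 3 were Tgfb1 at 46.0, 51.0 and 45.2 TPM, the chemokine Ccl9 at 41.6, 45.9 and 46.7 TPM, and Il12a, an interleukin 12 subunit, at 6.99, 6.83 and 6.25 TPM. Ifng had 1 count, in library 1, and Ifnb1 and the Ifna genes of the list had none. Cxcl10, a chemokine induced by IFN-γ, had 10 counts over the 3 libraries.

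Few markers of other cell types were expressed, against 43.9% of all protein-coding genes. Of 16 T and NK cell genes none was expressed, their summed level ran from 1.12 to 1.78 TPM per library, and Cd4, Cd8a and Trbc1 were at 0 counts. Of 15 myeloid genes 2 were expressed, Cd68 at 12.6 ± 1.67 TPM and Itgam at 1.17 ± 0.104 TPM, and S100a8, S100a9, Adgre1 and Elane were at 0 counts. Their sum ran from 12.4 to 15.6 TPM. The 11 erythroid and megakaryocyte genes summed to 1.42 to 1.60 TPM with none expressed and Alas2 and Pf4 at 0 counts. Of 16 stromal, endothelial and epithelial genes 2 were expressed, Pecam1 at 32.2 ± 0.748 TPM and Cdh5 at 2.10 ± 0.163 TPM, with Kdr, Col1a2 and Krt8 at 0 counts. Their sum ran from 34.2 to 35.1 TPM. Whether the expressed markers come from the lymphoma cells was not tested.

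**Figure D5:**
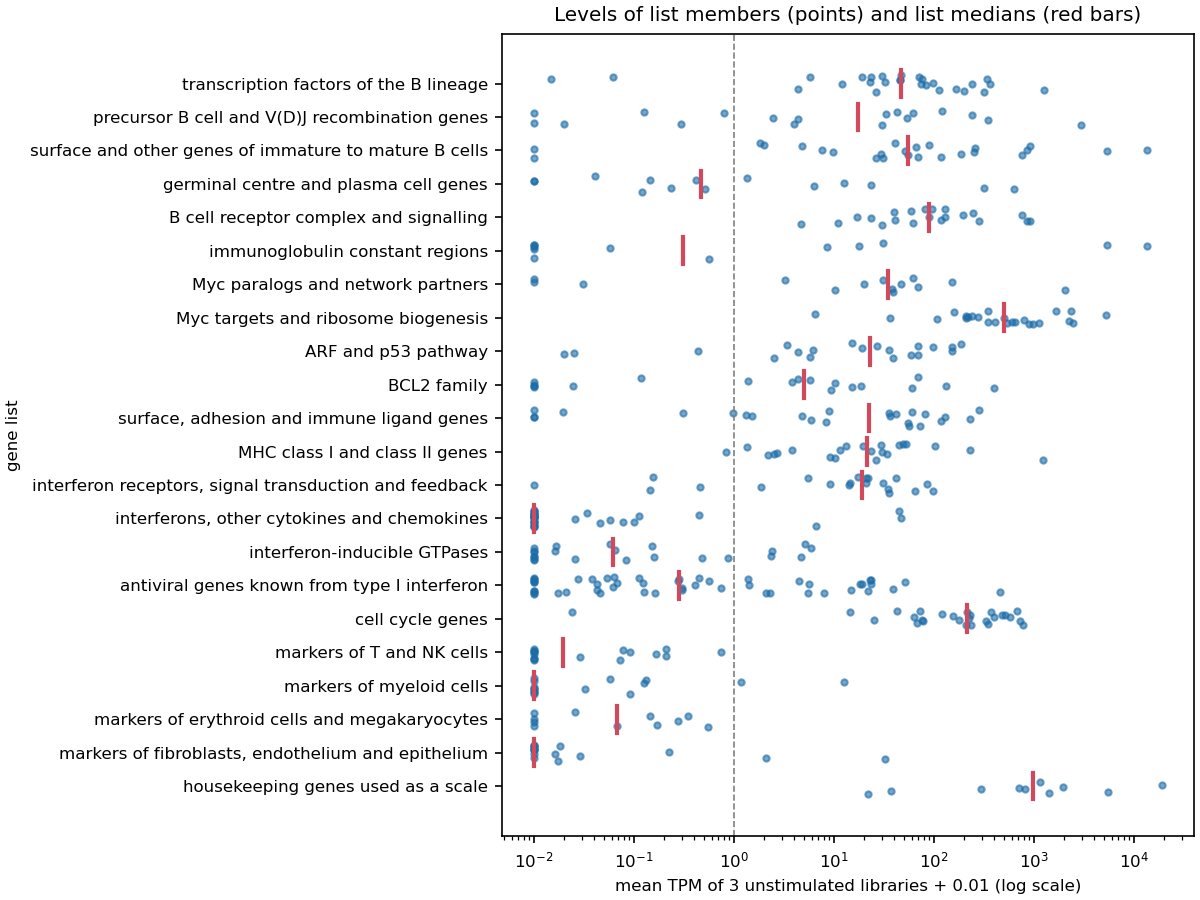
Mean level of each member of the 22 gene lists over the 3 unstimulated libraries (TPM plus 0.01, log scale, points are genes, red bars are list medians, dashed line at 1 TPM). All 25 genes of MYC targets and ribosome biogenesis and all 21 of receptor signalling lie right of the line. Most of the 30 cytokine genes and of the markers of other cell types lie left of it.

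The 3 libraries were close to each other. Over the 11592 expressed genes, Pearson's r of log2 TPM between pairs was 0.9934, 0.9935 and 0.9924, given as a description over genes, which are not independent replicates. Their counts, halved to read pairs, did not agree within sampling noise in any pair, where chi-square divided by its degrees of freedom was 5.36, 3.813 and 6.104. No pair was therefore treated as the same library deposited again, which does not show that the samples came from separate cultures. The common biological coefficient of variation (BCV), estimated with edgeR, was 0.0587, and 0.0473 on counts halved to read pairs. Of the 10 genes with the largest values among those at 10 TPM or more, most were annotated as pseudogenes. The largest was Gm23935, annotated as a miRNA of 57 bases, at 968, 1802 and 3571 TPM, with a BCV of 0.589, followed by the pseudogene Rps15a-ps6 at 0.449. The smallest was Pik3ca, a catalytic subunit of PI3 kinase, at 94.2, 96.5 and 94.4 TPM, with a BCV of 0.0414. Values of single genes are drawn by edgeR towards the trend over genes. The 5 smallest lay between 0.0414 and 0.0415, so Pik3ca is not set apart. The mitochondrially encoded genes took 11.08, 11.47 and 10.09% of TPM and immunoglobulin genes took 3.68, 3.85 and 3.87%. The immunoglobulin share includes J and D segments shorter than a read, for which division by exon length gives uncertain, high levels. Igkj4, of 38 bases, was at 1549 TPM from 2788 counts over the 3 libraries.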

How the data were processed

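Polyadenylated RNA was sequenced from 3 unstimulated samples of a cultured line. Per the labels' protocols, libraries were made from 500 ng of total RNA with a stranded kit and 10 PCR cycles and read over 2 × 125 bp. The authors deposited a table of unnormalized counts by gene. The submitters' processing notes name the mm10 build, featureCounts 1.4.3-p1, STAR 2.5.2a and Picard. The annotation release and strand setting were not given in the sources used here, so genes with an antisense partner are uncertain, as are near-identical copies. The header doubles some separators; sample names were therefore read in order without the empty cells, and 0 columns lacked a sample. Counts from 1 to 20 were mostly even, as when each mate is counted.

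Of 53379 identifiers, 53274 were found in GENCODE M21 (GRCm38), whose merged exon lengths gave TPM. Genes at the floor are limited by depth. The BCV came from edgeR 4.0.16 (R 4.3.3) with filterByExpr, TMM and robust estimation. It was checked on simulated data that had no doubling of counts by mates, so the check does not cover that doubling. No test between groups was run. Alternatives were other scaling, lengths, thresholds and each library left out. Members and the 22 lists were chosen with earlier results of these data known. Named genes were the 5 markers, any member of the B lineage, immunoglobulin and Myc network lists, the 5 highest and 5 lowest members of other lists, opposing pairs, the 20 most abundant genes and the extremes of BCV. Some members that this rule takes are not reported here or plotted by name, though list counts and medians include them. Mdm2, Bcl2l1, Itga4, Itgb2, Ptprc, Cd274, Cd80, Jak2, Irf1, Gbp2, Isg15, Iigp1, Gbp4, Cd86, Cxcl10, H2-Ab1 and H2-Aa were named after their values were seen, as were the ratios and the promoters shown.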

Additional observations from a re-analysis of the deposited data

How the results depend on the processing

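Of 300 recomputed values of 31 results, 285 stayed within the spread between libraries or within 1.5 times a count. The tolerance for counts is wide. With a minimum of 5 TPM, expressed genes of antigen presentation went from 21 to 16 and still lay within it. Marker levels and V segment shares with 1 library left out were bound to stay within the spread between libraries by construction. The scaling factors tried lay between 0.994 and 1.009, so they could move little. No paired analysis was possible because the results come from no test and from a single group. With a minimum of 5 TPM, 1 interferon-inducible GTPase, 1 myeloid marker and 1 stromal marker were expressed. With a minimum of 0.5 TPM, 1 T and NK cell marker was. Over all 53274 annotated genes, 9147 were expressed at 5 TPM, 11592 at 1 TPM and 12558 at 0.5 TPM. With the length of the longest transcript, 1 myeloid marker was expressed, and Myc was at 1811, Cd79a at 688, Pax5 at 200.7, Ebf1 at 91.3 and Igll1 at 32.7 TPM. Without mitochondrial genes these were at 2302, 1016, 268, 82.7 and 48.2 TPM. The cause is the setting's own construction, a different length or a smaller total. The common BCV was 0.0473 on halved counts, 0.0598 with any count and between 0.0515 and 0.0646 with a library left out. Depth limits what is said of genes at the floor.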

Other observations

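The following values were picked after they were seen. Xist, the RNA of the inactive X chromosome, was at 326, 391 and 372 TPM (363 ± 33.5, SD, n = 3), and its antisense partner Tsix had 2 counts over the 3 libraries. The Y-linked genes Ddx3y, Eif2s3y, Kdm5d and Uty were at 0 counts in all 3 libraries. The noncoding RNAs Gas5 and Malat1 averaged 251 and 97.3 TPM. The strand setting of the counting is not given, so Xist and Tsix reads cannot be told apart.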
